A study of Mus musculus with 16 samples.

Results

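Ablim1, Tuba8 and Tslp are 3 of the 22612 genes counted by RNA-seq and Ribo-seq in cells sorted from mouse hair follicle organoids. They were chosen by the untreated RNA difference between 2 sorted populations, as the 3 genes with the smallest p-values among those with less RNA in untreated hair follicle stem cells (HFSCs) than in untreated progenitor cells, out of 5 genes past an adjusted p of 0.05 on that side. Because the untreated RNA difference chose them, it is described without a test, and so are the untreated footprints and every difference that reads an untreated library. The log2 difference, HFSC minus progenitor, was -1.54 for Ablim1, -0.98 for Tuba8 and -0.85 for Tslp, the last of the 3 inside the choice. The genes just outside it were Tmprss4 at -1.21 and Sprr2h at -1.06.

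The organoids (3D-3C cultures) were grown for 2 weeks from epidermal cells of C57BL/6J mice in telogen, the resting phase of the hair cycle. Whole organoids were left untreated or received the acetylated polyamine N1-acetylspermidine (N1-AcSpd) during the final 72 h, and only then were the cells sorted into HFSCs (alpha6+CD34+) and progenitors (alpha6+CD34-), which gives 4 groups: untreated progenitor, untreated HFSC, N1-AcSpd progenitor and N1-AcSpd HFSC. All 4 groups share the strain, the culture and the integrin alpha6 gate, so the progenitors are the cells of the same culture that lacked surface CD34. Every group had 1 RNA-seq and 1 Ribo-seq library from each of 2 donor mice (n = 2, 16 libraries in all), and RNA-seq reports messenger abundance while Ribo-seq counts fragments covered by ribosomes, called footprints. Levels below are CPM, counts scaled to the library's total after TMM normalisation, of 1 transcript per gene.

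The RNA-seq libraries held 21612795 to 31524062 counts and the Ribo-seq libraries 34475 to 268052, so footprint values rest on far fewer reads. Across 12256 genes the RNA difference between mouse 2 and mouse 1 in N1-AcSpd HFSCs ran against that in the other 3 groups (r from -0.57 to -0.40, and from 0.35 to 0.59 among those 3), so results that use the mouse numbers are given beside results that do not. The sort was visible in the RNA: Cd34, the surface antigen used as the gate, averaged 2.96 CPM ± 0.86 (SD, n = 2) in untreated progenitors and 77.1 CPM ± 13.7 in untreated HFSCs, and 3.88 CPM ± 2.09 and 79.0 CPM ± 15.4 under N1-AcSpd. Of 11 HFSC markers 3 were called higher in HFSCs in both RNA comparisons, Cd34, Krt15 and Nfatc1, where 0.148% of 14224 genes were called in either direction untreated and 0.745% under N1-AcSpd. Itga6, the integrin shared by both gates, differed by -0.37 (SE 0.11) untreated and by -0.22 (SE 0.11) under N1-AcSpd on the log2 scale, with adjusted p = 0.27 and 0.53 in edgeR's quasi-likelihood test.

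Ablim1 encodes actin-binding LIM protein 1, which carries LIM zinc fingers in its amino-terminal part and a villin headpiece that binds actin filaments at its carboxy-terminal end. Tuba8 encodes an alpha tubulin isotype, a partner of beta tubulin in the microtubule. Tslp encodes thymic stromal lymphopoietin, a cytokine secreted by keratinocytes that acts through a receptor made of the Crlf2 and Il7r chains and is known in skin for starting type 2 inflammation.

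Ablim1 lies on the minus strand of chromosome 19 from 57032733 to 57314919 (GRCm38), a span of 282187 bases, and the transcript counted here has 24 exons with 2232 coding bases. Tuba8 lies on the plus strand of chromosome 6 from 121210696 to 121226854, with 5 exons and 1347 coding bases. The counts covered coding exons: of 1899 pairs of transcripts with the same coding exons and untranslated exons that differed by 500 bases or more, 1895 had equal counts in all 8 RNA-seq libraries. No word of 28 bases of the Ablim1 or Tslp coding sequence occurred elsewhere in the genome or in another gene's transcripts, whereas 329 of 1320 words of Tuba8 (24.9%) did. Exons of the antisense gene Gm15856 cover 291 coding bases of Tuba8, and the RNA-seq kit is not stated to keep strand, so reads from the 2 genes cannot be told apart there. The 329 words take in any that Tuba8 shares with transcripts of Gm15856 at this same place in the genome.

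The promoter windows of Tuba8 and of 2 of the 5 RefSeq starts of Ablim1 are shown, the latter because the parts of Ablim1 are described separately below. No window is shown for Tslp. That RNA of these genes moved in the same direction between the untreated groups was set by the way they were chosen. Each runs from 250 bases before to 50 bases after a RefSeq start (GRCm38.p6), 5′ to 3′ on the gene's own strand, with capitals at matches to 5 motifs searched on both strands, TATAAA (the TATA box), CCAAT (the CCAAT box), GGGCGG (the GC box), TGANTCA (the AP-1 site) and GTGGGAA (the RBPJ site). The windows are chr19:57314870-57315169 (minus strand) for the start upstream of the 5′ part, chr19:57118975-57119274 (minus strand) for the internal start next to the 3′ part, and chr6:121210484-121210783 (plus strand) for Tuba8.
Ablim1, upstream start: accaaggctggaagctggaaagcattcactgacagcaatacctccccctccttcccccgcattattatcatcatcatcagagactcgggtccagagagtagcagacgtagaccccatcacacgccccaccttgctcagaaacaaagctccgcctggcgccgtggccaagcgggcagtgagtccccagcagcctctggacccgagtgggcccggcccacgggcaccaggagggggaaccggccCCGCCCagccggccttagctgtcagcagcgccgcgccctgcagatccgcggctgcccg
Ablim1, internal start: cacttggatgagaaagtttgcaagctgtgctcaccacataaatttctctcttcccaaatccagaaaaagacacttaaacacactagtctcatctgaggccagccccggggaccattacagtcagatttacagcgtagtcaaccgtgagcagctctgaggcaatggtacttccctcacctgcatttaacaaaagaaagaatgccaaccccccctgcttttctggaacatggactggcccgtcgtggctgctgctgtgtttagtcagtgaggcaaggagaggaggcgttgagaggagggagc
Tuba8: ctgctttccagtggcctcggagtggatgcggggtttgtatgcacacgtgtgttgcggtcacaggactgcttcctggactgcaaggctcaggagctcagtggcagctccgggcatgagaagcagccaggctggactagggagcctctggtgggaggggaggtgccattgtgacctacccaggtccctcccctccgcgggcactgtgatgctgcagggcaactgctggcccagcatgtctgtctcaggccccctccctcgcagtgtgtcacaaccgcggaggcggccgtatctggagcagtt
The upstream Ablim1 window held 1 match, GGGCGG on the opposite strand beginning 8 bases before the start, a motif found in 35.7% of 32851 promoter windows of this length. The 3 Ablim1 windows not printed held 6 matches (TATA box, GC box and AP-1 site) at chr19:57274619-57274918, 2 (TATA box and GC box) at chr19:57215983-57216282 and 1 (CCAAT box) at chr19:57197582-57197881. The internal Ablim1 window shown and the Tuba8 window held none of the 5 motifs, which were found in 13.6% (TATAAA), 37.4% (CCAAT), 7.81% (TGANTCA) and 6.38% (GTGGGAA) of all windows. GC content was 65.3% in the upstream Ablim1 window, 50.3% in the internal one and 63.7% in that of Tuba8, beside a median of 52.7%, and the windows held 20, 6 and 12 CpG dinucleotides, beside a median of 7.0.

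All 3 genes had the same order of RNA levels over the 4 groups: N1-AcSpd progenitor, untreated progenitor, N1-AcSpd HFSC and untreated HFSC, from high to low. No neighbours in that order overlapped in any of the 3 genes, although each group is only 2 libraries. The choice of the genes favours such separation between the untreated groups, and the share of all genes that show it was not computed. Ablim1 RNA stood at 24.4 and 28.5 CPM in untreated progenitors, 9.20 and 8.97 in untreated HFSCs, 40.8 and 33.8 in N1-AcSpd progenitors and 13.1 and 15.4 in N1-AcSpd HFSCs. The lowest progenitor library was thus above the highest HFSC library in either treatment. Tuba8 RNA stood at 56.3 and 59.6 CPM in untreated progenitors, 30.8 and 28.1 in untreated HFSCs, 84.7 and 87.9 in N1-AcSpd progenitors and 41.2 and 46.8 in N1-AcSpd HFSCs. Tslp RNA stood at 386 and 369 CPM in untreated progenitors, 219.7 and 198 in untreated HFSCs, 514 and 521 in N1-AcSpd progenitors and 295 and 338 in N1-AcSpd HFSCs. For Tslp the highest HFSC library (338) and the lowest untreated progenitor library (369) lay closest to each other.

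**Figure D1:**
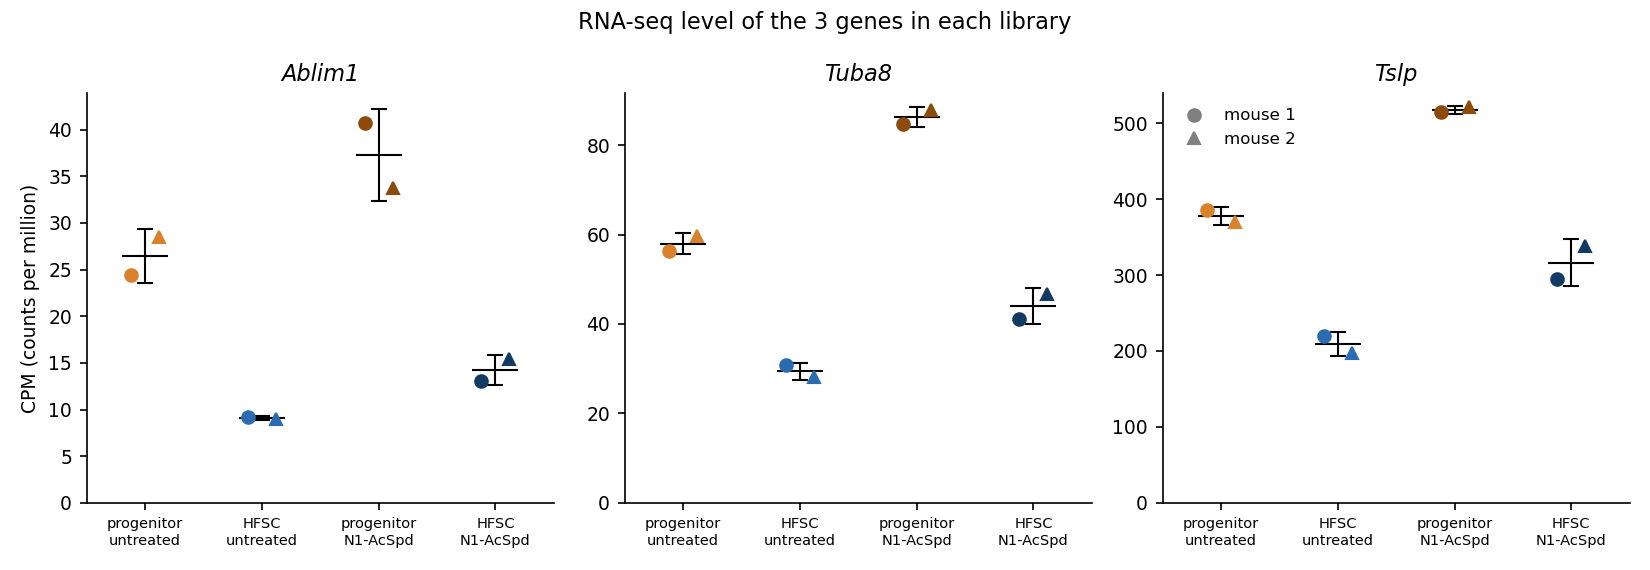
RNA-seq level (CPM, y axis from 0) of Ablim1, Tuba8 and Tslp in the 4 groups, 1 point per library with the mouse given by its shape, and the group mean ± SD (n = 2) in black. In each panel both progenitor groups sit above both HFSC groups, and each N1-AcSpd group sits above the untreated group of the same cells.

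Under N1-AcSpd, in libraries whose group means did not enter the choice of the genes, RNA of all 3 was again lower in HFSCs. Ablim1 averaged 37.3 CPM ± 4.95 (SD, n = 2) in progenitors and 14.2 ± 1.65 in HFSCs, a log2 difference of -1.39 (SE 0.15, adjusted p = 0.0115, edgeR quasi-likelihood test, Benjamini-Hochberg over 14224 genes). Tuba8 averaged 86.3 CPM ± 2.26 and 44.0 ± 3.98, a log2 difference of -0.97 (SE 0.11, adjusted p = 0.0120, same edgeR test). Tslp averaged 518 CPM ± 4.996 and 316 ± 30.4, a log2 difference of -0.71 (SE 0.11, adjusted p = 0.0318, same edgeR test). The progenitor mean was 2.62-fold the HFSC mean for Ablim1, 1.96-fold for Tuba8 and 1.64-fold for Tslp. Across all genes tested, 63 of 14224 (0.443%) were called lower in HFSCs in this comparison.

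Within mouse 1 the treated log2 difference in RNA was -1.64 for Ablim1, -1.04 for Tuba8 and -0.80 for Tslp, and within mouse 2 it was -1.13, -0.91 and -0.63. All 3 genes were lower in HFSCs in both mice. The same differences without N1-AcSpd, which chose the genes, were -1.41, -0.87 and -0.81 in mouse 1 and -1.67, -1.08 and -0.90 in mouse 2. An exact permutation test of 2 libraries against 2 cannot give a p below 0.333, so the calls rest on the spread edgeR shares across genes, and the choice of these genes had already read that spread in all 8 libraries. With the mouse as a block, the edgeR adjusted p was 0.0356 for Ablim1, 0.0328 for Tuba8 and 0.0587 for Tslp, and with the 4 treated libraries alone it was 0.0498, 0.0519 and 0.115. Leaving out the N1-AcSpd progenitor library or the N1-AcSpd HFSC library of mouse 1 ended the calls of all 3 genes (edgeR adjusted p from 0.0911 to 0.191), and Tslp also lost its call without either library of mouse 2 (0.105 and 0.0652). Over every alternative the adjusted p ran from 4.44e-10 to 0.0979 for Ablim1, from 6.02e-09 to 0.0990 for Tuba8 and from 3.57e-06 to 0.191 for Tslp, with DESeq2 at the low ends.

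N1-AcSpd groups stood above untreated groups of the same cells in all 3 genes, as a description without a test. In progenitors the N1-AcSpd mean was 1.41-fold the untreated mean for Ablim1, 1.49-fold for Tuba8 and 1.37-fold for Tslp. In HFSCs it was 1.57-fold, 1.49-fold and 1.52-fold. The ratios ran from 1.37-fold to 1.57-fold, and in both mice the treated library was the higher one in each of the 3 genes. The share of all genes with such a difference was not computed. For Ablim1 the difference was uneven along the gene, with log2 ratios of 0.04 and 0.18 in the 5′ part and 0.66 and 0.76 in the 3′ part, as described below.

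Suprabasal keratinocyte markers, genes of the differentiating layers of the epidermis, moved in the same order as the 3 genes. The summed level of the 11 markers was 508 to 511 CPM in untreated progenitors, 249 to 337 in untreated HFSCs, 849 to 1168 in N1-AcSpd progenitors and 340.0 to 468 in N1-AcSpd HFSCs. Under N1-AcSpd all 11 were lower in HFSCs, with a median log2 difference of -1.91 against 0.00 over all genes, and 2 passed the edgeR test, Ivl, a cornified envelope precursor (-0.94, SE 0.10, adjusted p = 0.0113), and Calm4, a calmodulin-like calcium-binding protein (-1.97, SE 0.28, adjusted p = 0.0248). Untreated, 10 of 11 were lower, the median was -1.20 against -0.01 and none passed the test (9 of 11 had an unadjusted p under 0.05). Over all 14224 genes an unadjusted p under 0.05 was found for 9.58% untreated and 11.2% under N1-AcSpd, against which this count and those of the lists below are to be read. The differentiation keratins Krt1 and Krt10 were above 0 in every library, at 8.24 to 119 CPM and 2.64 to 35.2 CPM. The part of these cells in the levels of Ablim1, Tuba8 and Tslp was not tested, and in bulk samples fewer cells of a type and less RNA per cell cannot be told apart.

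The coding sequence of Ablim1 can be read in parts, because some of its transcripts hold only the 5′ exons and others, which begin close to the internal start shown above, hold only the 3′ exons. Of the 14 transcripts in the count tables, 8 spanned the gene, 4 covered the 3′ part and 2 the 5′ part, and 1 transcript of either part is used here. Per kb of coding sequence, RNA of the 5′ part stood at 12.01 and 16.6 CPM in untreated progenitors, 4.72 and 4.66 in untreated HFSCs, 14.0 and 15.5 in N1-AcSpd progenitors and 5.75 and 4.89 in N1-AcSpd HFSCs. Progenitors were above HFSCs with either treatment, while N1-AcSpd and untreated libraries of the same cells lay close together. RNA of the 3′ part stood at 13.5 and 15.6 CPM per kb in untreated progenitors, 5.23 and 5.36 in untreated HFSCs, 26.4 and 19.5 in N1-AcSpd progenitors and 7.77 and 10.2 in N1-AcSpd HFSCs. Here each N1-AcSpd group stood above its untreated group, whereas in the 5′ part only the HFSC groups did not overlap, and by less. The share of all genes separated in these ways was not computed.

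Fits with 1 part in place of the counted transcript were added after the data were seen. The parts share most of their coding bases with that transcript, so these fits are not separate from its test. The cell type difference under N1-AcSpd was similar in the parts. On the log2 scale it was -1.48 (SE 0.21, adjusted p = 0.0242, edgeR) for the 5′ part and -1.35 (SE 0.20, adjusted p = 0.0264) for the 3′ part. The N1-AcSpd difference was not similar in the parts. For the 5′ part the log2 ratio of N1-AcSpd to untreated means was 0.04 in progenitors and 0.18 in HFSCs. For the 3′ part it was 0.66 and 0.76. The ratio of the 3′ part to the 5′ part per kb was 1.13 and 0.935 in untreated progenitors, 1.11 and 1.15 in untreated HFSCs, 1.89 and 1.26 in N1-AcSpd progenitors and 1.35 and 2.09 in N1-AcSpd HFSCs. All 4 N1-AcSpd libraries were above all 4 untreated ones, a pattern noticed after the values were seen and given without a test. Among 702 genes with separate 5′ and 3′ transcripts, 19 (2.71%) had the treated libraries all above the untreated ones, and the median log2 shift of the ratio was 0.00, beside 0.58 for Ablim1.

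**Figure D2:**
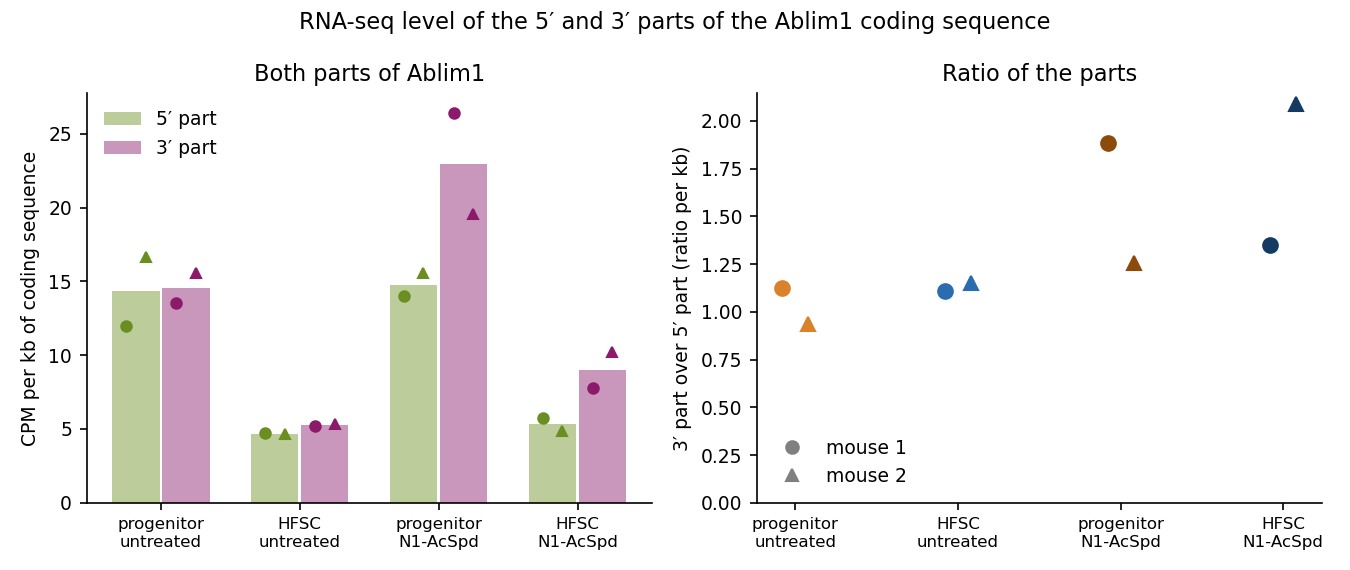
Left, RNA-seq level of the 5′ and 3′ parts of Ablim1 (CPM per kb of coding sequence, bars are means of 2 libraries, points are libraries with the mouse given by shape); right, the ratio of the parts in each library. The 5′ part differs between cell types and hardly between treatments, and the ratio is 0.935 to 1.15 in untreated libraries and 1.26 to 2.09 in N1-AcSpd libraries.

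Footprints of the 3 genes followed the RNA in direction under N1-AcSpd without passing a test. Ablim1 had 20 footprints in the 8 Ribo-seq libraries together: 0 and 6 in untreated progenitors, 1 and 0 in untreated HFSCs, 2 and 6 in N1-AcSpd progenitors and 3 and 2 in N1-AcSpd HFSCs. At 0 counts the limit of 3 counts is 0.00870% of the untreated progenitor library of mouse 1 and 0.00225% of the untreated HFSC library of mouse 2, and this covers counting error only. The counts of the 2 mice were then summed and scaled for depth. The HFSC to progenitor ratio of Ablim1 footprints was 0.433 under N1-AcSpd (95% interval 0.112 to 1.502, exact binomial). This interval leaves out the spread between mice. It holds 1, so a difference in Ablim1 footprints under N1-AcSpd was not detectable at this depth. Untreated, the ratio was 0.263 from summed counts and 0.72 from group means, given without a test.

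Tuba8 footprints stood at 125 and 56.3 CPM in untreated progenitors (5 and 14 counts), 52.3 and 55.8 in untreated HFSCs (3 and 7), 185 and 246 in N1-AcSpd progenitors (15 and 15) and 83.3 and 33.0 in N1-AcSpd HFSCs (12 and 2). The N1-AcSpd progenitor libraries were above all others, and the untreated groups nearly met. Tslp footprints stood at 2151 and 3314 CPM in untreated progenitors (86 and 824 counts), 1569 and 1418 in untreated HFSCs (90 and 178), 3324 and 4539 in N1-AcSpd progenitors (269 and 277) and 2991 and 2307 in N1-AcSpd HFSCs (431 and 140). Progenitors were above HFSCs with either treatment, while N1-AcSpd HFSCs overlapped untreated progenitors. The share of all genes whose footprint libraries separate in such ways was not computed.

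The treated log2 difference in footprints was -1.18 (SE 1.32) for Ablim1, -1.72 (SE 0.73) for Tuba8 and -0.56 (SE 0.35) for Tslp, each with an adjusted p of 1 in edgeR over 8440 genes. Unadjusted, p was 0.37, 0.0185 and 0.106 in the same edgeR fit, where 128 genes (1.52%) were lower in HFSCs at an unadjusted p under 0.05 and 2 (0.0237%) after adjustment. The value for Ablim1 rested on 6 counts in the N1-AcSpd progenitor library of mouse 2, without which it was 0.033. That of Tuba8 was -2.65 without the N1-AcSpd HFSC library of mouse 1, which leaves the 2 counts of mouse 2 for that group.

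**Figure D3:**
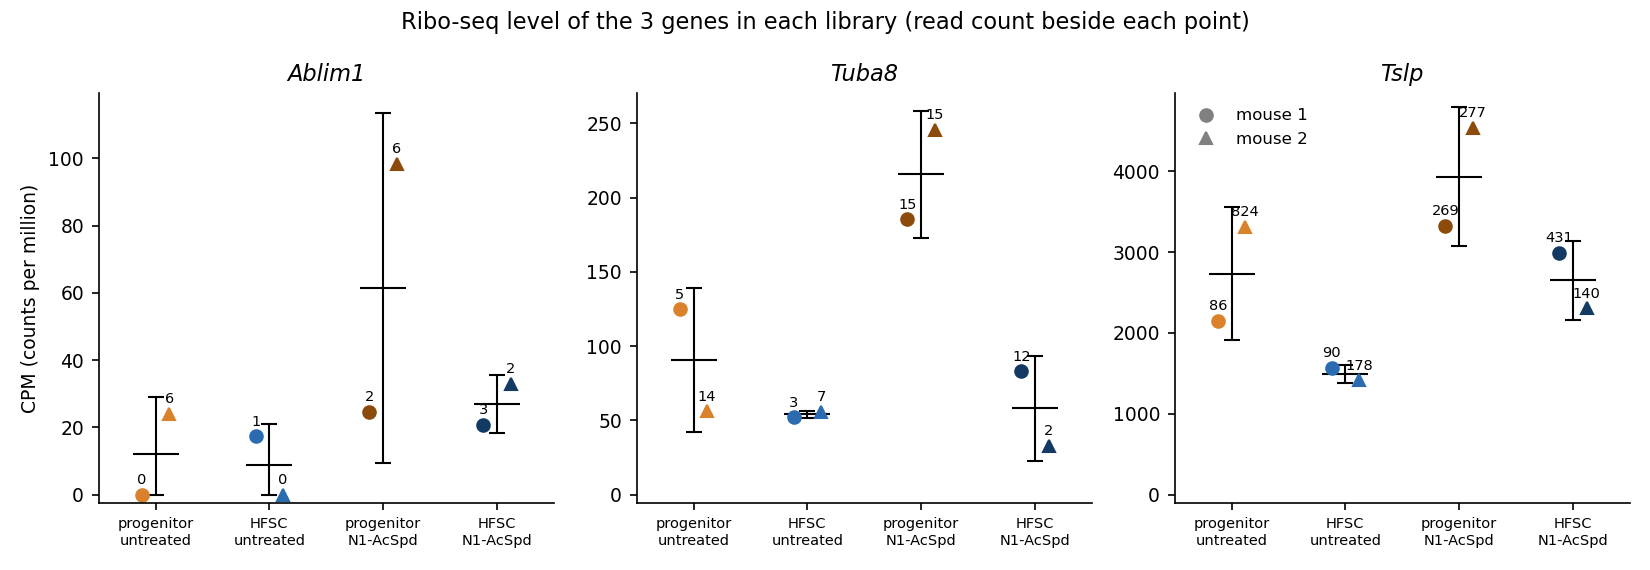
Ribo-seq level (CPM) of the 3 genes in the 4 groups, 1 point per library with its read count and the mouse given by its shape, and the group mean ± SD (n = 2, bars stopped at 0) in black. Ablim1 has 0 to 6 counts a library, Tuba8 2 to 15 and Tslp 86 to 824, and the N1-AcSpd progenitor mean is the highest in each panel.

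The footprint-to-RNA ratio, which compares the ribosome-covered share of a gene with its RNA share, did not differ detectably between N1-AcSpd HFSCs and progenitors. In the edgeR interaction test of assay and cell type the log2 difference was 0.19 (SE 0.93, adjusted p = 0.978) for Ablim1, -0.67 (SE 0.51, adjusted p = 0.838) for Tuba8 and 0.17 (SE 0.28, adjusted p = 0.926) for Tslp. No gene of 8019 passed this test (0%), 499 (6.22%) had an unadjusted p under 0.05 and DESeq2 called 0. Leaving out libraries moved the sign of the Ablim1 and Tslp values, to -0.74 and -0.03 without N1-AcSpd progenitors of mouse 1 and, for Tslp, to -0.14 without N1-AcSpd HFSCs of mouse 1. That of Tuba8 kept its sign but ran from -1.80 without N1-AcSpd HFSCs of mouse 1 to -0.32 without those of mouse 2.

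The level of that ratio set Tslp apart from the other genes. Tslp gave 5.58 and 8.97 in untreated progenitors, 7.14 and 7.17 in untreated HFSCs, 6.47 and 8.71 in N1-AcSpd progenitors and 10.1 and 6.83 in N1-AcSpd HFSCs, so that the groups overlapped and no library was under 5. Over all libraries its mean Ribo-seq CPM was 7.61 times its mean RNA-seq CPM, a ratio above that of 99.5% of 8439 genes averaging 1 or more counts in both assays and of 98.9% of 2261 genes averaging 10 or more. Tuba8, at 1.92, was above 76.1% of the 8439 genes and Ablim1, at 1.25, above 52.8%. Per kb of coding sequence Tslp ranked 184 of 14163 genes in RNA-seq (845 CPM per kb) and 12 of 8428 in Ribo-seq (6432 CPM per kb). Tuba8 reached 40.4 and 77.7 CPM per kb in the respective assays and Ablim1 9.75 and 12.2.

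**Figure D4:**
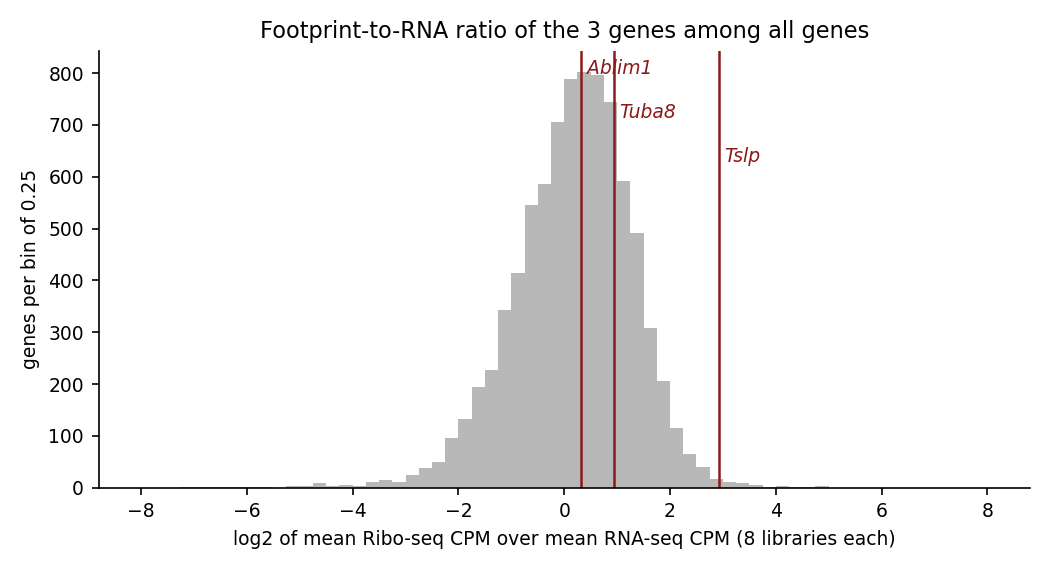
Histogram of the log2 ratio of mean Ribo-seq CPM to mean RNA-seq CPM (8 libraries each) over 8439 genes, with lines at Ablim1 (0.33), Tuba8 (0.94) and Tslp (2.93). Tslp lies in the upper tail, Tuba8 above 76.1% of the genes and Ablim1 near the middle.

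Tuba8 was 1 of 5 alpha tubulin genes with RNA above the filter, and the only one of the 5 called, untreated by the way it was chosen and under N1-AcSpd by the test above. Under N1-AcSpd the log2 difference, HFSC minus progenitor, was -0.25 (SE 0.14) for Tuba1a, 0.05 (SE 0.21) for Tuba1b, -0.04 (SE 0.18) for Tuba1c and -0.53 (SE 0.21) for Tuba4a, with adjusted p from 0.375 to 0.968 (edgeR). Untreated, the values of these 4 isotypes ran from -0.28 to 0.15 (adjusted p from 0.752 to 0.941). Tuba4a libraries did not overlap between the cell types with either treatment, at 255 to 291 CPM in untreated progenitors, 212 to 238 in untreated HFSCs, 265 to 365 in N1-AcSpd progenitors and 175 to 261 in N1-AcSpd HFSCs. The N1-AcSpd groups nearly met, and the share of all genes separated in this way was not computed. Whether the difference of Tuba8 was larger than theirs was not tested. Per kb of coding sequence, mean RNA over the 8 libraries was 388 CPM for Tuba1b, 213 for Tuba1c and 192 for Tuba4a. It was 40.4 for Tuba8 and 37.3 for Tuba1a, the lowest of the 5. The order was another in footprints, with 661 CPM per kb for Tuba4a, 77.7 for Tuba8 and 56.5 for Tuba1c, and only 7 counts in all for Tuba1a and 1 for Tuba1b. Words of 28 bases found elsewhere made up 98.2% of Tuba1a, 98.04% of Tuba1b and 95.2% of Tuba1c. They made up 24.9% of Tuba8 and 10.8% of Tuba4a. The value for Tuba8 takes in any words shared with the overlapping antisense gene Gm15856, and Tuba8 shared 0 to 37 of its 1320 words with each other alpha tubulin gene. The sources used here do not say how the authors treated reads with several matches, so RNA and footprint levels of these isotypes, and their order, are uncertain. Tuba3a had 1 RNA count in all, and Tuba3b and Tubal3 had 0 of at least 21612795 counts in each library, which allows a share of up to 1.39e-05%.

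**Figure D5:**
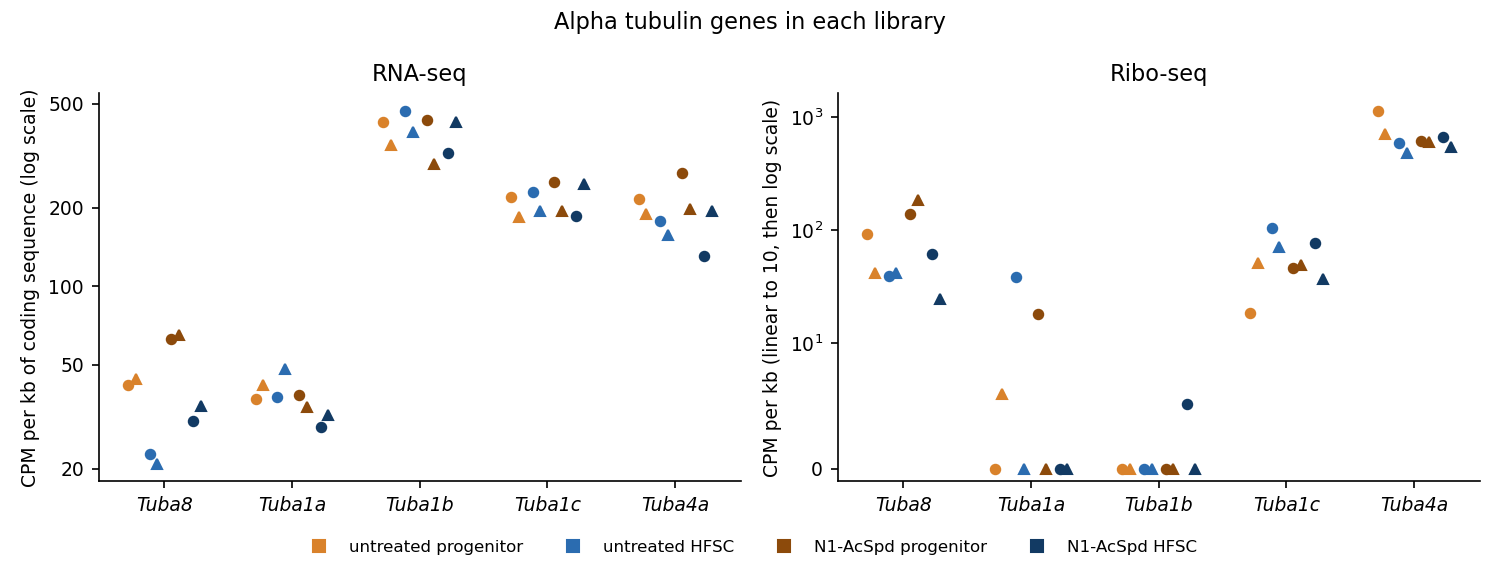
RNA-seq (left, log axis) and Ribo-seq (right, linear to 10 and then log) levels of 5 alpha tubulin genes in CPM per kb of coding sequence, 1 point per library, coloured by group, with circles for mouse 1 and triangles for mouse 2. Progenitor and HFSC libraries of Tuba8 lie apart in RNA with either treatment, those of Tuba4a lie apart by less, and Tuba1b has high RNA and 1 footprint in all.

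The other tubulin genes gave no call. Of 11 beta, gamma, delta and epsilon tubulins tested, 8 were lower and 3 higher in N1-AcSpd HFSCs (median -0.05 against 0.00 over all genes, 3 at an unadjusted p under 0.05 in edgeR), and 5 were lower untreated. The smallest p-values were those of the beta tubulins Tubb2b, at -0.85 (SE 0.16, adjusted p = 0.0558, edgeR), and Tubb2a, at -0.67 (SE 0.15, adjusted p = 0.105). In the edgeR test, of 25 genes of tubulin folding and modification none was called (under N1-AcSpd 9 were lower, the median was 0.04 and 1 had an unadjusted p under 0.05). Over both RNA comparisons Hdac6, a tubulin deacetylase, and Agbl5, a tubulin deglutamylase, had the smallest p-values. Under N1-AcSpd Hdac6 was at 0.43 (SE 0.12, adjusted p = 0.198, edgeR) and Agbl5 at 0.31 (SE 0.18, adjusted p = 0.611). Agbl5 was named for its untreated value of 0.45 (SE 0.18, adjusted p = 0.456, edgeR).

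Ablim3, a paralog of Ablim1, had less RNA than Ablim1, with 1.17 CPM per kb of coding sequence over the 8 libraries against 9.75. It had 31 to 90 RNA counts a library, against 237 to 902 for Ablim1, and 2 footprints in all. Its N1-AcSpd difference was 0.11 (SE 0.46) on the log2 scale, HFSC minus progenitor, with adjusted p = 0.967 in edgeR. In the edgeR test, of 6 other villin headpiece genes tested 5 were higher in N1-AcSpd HFSCs and none was called (median 0.34, 2 at an unadjusted p under 0.05), with the smallest p-values for Vill, a villin-like gene, at 0.80 (SE 0.23, adjusted p = 0.214), and Avil, advillin, at -1.44 (SE 0.59, adjusted p = 0.404). In the edgeR test, of 36 actin-associated LIM genes 22 were lower in the untreated comparison, 22, not always the same, were lower under N1-AcSpd, and none was called (under N1-AcSpd the median was -0.05 and 9 had an unadjusted p under 0.05), with Fhl2 at -0.62 (SE 0.15, adjusted p = 0.126) and Mical1 at 0.83 (SE 0.23, adjusted p = 0.188) first by p.

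Tslp lies on the plus strand of chromosome 18 from 32815383 to 32819797 (GRCm38), with 5 exons and 420 coding bases. Its receptor chains differed in RNA level. Crlf2, the chain that binds the cytokine, had 276 to 446 RNA counts a library, at 13.8 CPM ± 1.63 (SD, n = 2) in N1-AcSpd progenitors and 13.9 ± 0.45 in N1-AcSpd HFSCs, a log2 difference of 0.01 (SE 0.24, adjusted p = 0.996, edgeR). Il7r, the other chain, had at most 2 counts in any RNA-seq library. In the edgeR test, of 7 receptor and JAK-STAT genes tested none was called (5 higher under N1-AcSpd, median 0.12, 0 at an unadjusted p under 0.05), with Stat5b at 0.24 (SE 0.12, adjusted p = 0.500) and Stat5a at 0.42 (SE 0.23, adjusted p = 0.573) first by p.

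Among 16 other keratinocyte cytokines and alarmins tested, 8 were lower and 8 higher in N1-AcSpd HFSCs, with a median of 0.01 and no call in edgeR (5 at an unadjusted p under 0.05). Il33, an alarmin of the same type 2 axis, stood at 9.94 and 7.49 CPM in untreated progenitors, 2.89 and 2.35 in untreated HFSCs, 22.9 and 11.9 in N1-AcSpd progenitors and 3.25 and 5.85 in N1-AcSpd HFSCs. Its groups had the same order as those of Tslp without overlap, at low levels. The share of all genes separated in this way was not computed, and Il33 was named for its small p-value. The log2 differences were -1.73 (SE 0.38, adjusted p = 0.142) untreated and -1.92 (SE 0.37, adjusted p = 0.0633) under N1-AcSpd, which did not pass the edgeR test. Il7, a cytokine that also uses the Il7r chain, had 1.05 (SE 0.26, adjusted p = 0.151, edgeR) under N1-AcSpd.

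Of 21 genes known to regulate Tslp in keratinocytes, 2 were called lower in HFSCs than in progenitors under N1-AcSpd (0.443% of all genes were), and none was called untreated in edgeR, where 4 had an unadjusted p under 0.05. In each comparison 9 of the 21 were lower, with medians of 0.02 under N1-AcSpd and 0.04 untreated. Both encode kallikrein proteases of the upper epidermis, of which Klk5 is known to induce Tslp through the protease-activated receptor encoded by F2rl1. Klk5 stood at 2.23 and 2.37 CPM in untreated progenitors, 0.37 and 0.91 in untreated HFSCs, 14.1 and 11.4 in N1-AcSpd progenitors and 1.96 and 2.40 in N1-AcSpd HFSCs, with a treated log2 difference of -2.54 (SE 0.32, adjusted p = 0.0166, edgeR). Both HFSC and progenitor libraries of Klk5 were higher with N1-AcSpd than without, which is given without a test. How many of all genes show this was not computed. Klk7 had a treated log2 difference of -2.36 (SE 0.29, adjusted p = 0.0138, edgeR) and an untreated one of -1.85 (SE 0.31, adjusted p = 0.0704). F2rl1 itself was at 0.05 (SE 0.20, adjusted p = 0.960, edgeR) under N1-AcSpd, and Spink5, which encodes the inhibitor of these proteases, was at -1.17 (SE 0.36, adjusted p = 0.241). F2rl1 and Spink5 were named after their values were seen. The suprabasal markers described above differed between the same groups in the same direction, and their part in the kallikrein levels was not tested.

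Over the 8 RNA-seq libraries the profiles of Tuba8 and Tslp were close to each other. With each gene's mean removed, their root mean square (RMS) difference was 0.11 on the log2 CPM scale (Pearson r = 0.993), and among 12256 genes averaging 10 or more counts Tslp was the nearest to Tuba8 and Tuba8 the third nearest to Tslp. The other genes nearest to Tuba8 were Plbd1, Rbp2, Smagp and Slc52a3, at RMS differences of 0.12 to 0.14. Those nearest to Tslp were Mal2, Plbd1, Slc22a23 and Reep6, at 0.08 to 0.12. Ablim1 lay farther off, at 0.26 from Tuba8 and 0.35 from Tslp, with the larger range of the 3, and its nearest profiles were Bpifc, Notch3, Erc2, Ankrd22 and Hephl1 at 0.20 to 0.24. Ranked by Pearson correlation, none of these 5 stayed among the 5 nearest to Ablim1, and 2 of 5 stayed for Tuba8 and 2 of 5 for Tslp. All 3 genes were chosen by the untreated RNA difference, with a spread read in these same 8 libraries, and this choice favours like profiles among them. The 8 libraries also share 2 mice, 1 culture scheme and the treatment, so these likenesses are descriptions.

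Markers of other cell types gave no call in either RNA comparison. Summed levels lay between 0.825 and 2.12 CPM for 6 melanocyte markers, 1.07 and 17.4 for 8 fibroblast markers, 5.20 and 18.6 for 9 immune cell markers, 1.03 and 3.72 for 4 Merkel cell markers, 0.818 and 1.74 for 4 endothelial markers, 0.435 and 2.03 for 4 sebocyte markers and 2.21 and 3.84 for 7 skeletal muscle markers. Medians of the treated log2 difference were -3.04 for melanocyte and -1.29 for fibroblast markers. Of those tested, 3 of 4 melanocyte and 7 of 7 fibroblast markers were lower in N1-AcSpd HFSCs. Summed fibroblast markers stood at 1.81 and 17.4 CPM in the N1-AcSpd progenitor libraries. First by p were Tyrp1 and Dct for melanocytes and Pdgfra and Twist2 for fibroblasts, all at low counts. In the other 5 lists those first by p over both RNA comparisons were Cd74 and H2-Aa, Krt18 and Krt8, Kdr and Pecam1, Cidea and Awat2, and Myh1 and Mylpf. Basal keratinocyte markers summed to 41067 to 48755 CPM over all libraries with no call (median -0.10 under N1-AcSpd), and Itga6 and Trp63 were first by p.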

How the data were processed

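RNA-seq and Ribo-seq were made from the same lysates of sorted mouse organoid cells, with 2 donor mice in each of 4 groups. The authors deposited whole-number counts per transcript: reads were freed of rRNA and tRNA with Bowtie 1.2.3 and aligned with STAR 2.7.3a, and the submitters' processing notes name featureCounts and GRCm38.p5. How reads with several matches were counted, and the strand setting, are not given in the sources used here. Deposited columns of the authors' own comparisons (fold changes and p-values) were not used. Equal counts of transcripts that differ only in untranslated exons showed that the counts cover coding sequence.

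For each of 22612 genes 1 transcript was kept. Genes averaging 1 or more counts were tested with edgeR 4.0.16 (R 4.3.3; TMM, quasi-likelihood F-test, Benjamini-Hochberg over all genes, called at an adjusted p of 0.05 or less) in a fit of all 4 groups, 14224 genes in RNA-seq, 8440 in Ribo-seq and 8019 in the interaction of assay and cell type. The fit was tested on simulated data. DESeq2 1.42.0 and the other alternatives are given in the closing section. Ribo-seq reads carried no molecular identifiers, so counting intervals cover counting error only.

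Ablim1, Tuba8 and Tslp, the gene lists and the tests were chosen with earlier results of these data known. Named genes are the 3 genes, their families, the receptor chains of Tslp, the sort checks, up to 4 called genes of each list (or the 2 with the smallest p-values where none was called) and the 5 nearest RNA profiles of each gene. One gene of these families is not reported here. Replicate numbers mark the donor mouse, which pairs the libraries. The correlation of the mouse differences between groups was 0.35 to 0.59 among 3 RNA-seq groups, -0.57 to -0.40 with N1-AcSpd HFSCs, and 0.02 to 0.11 in Ribo-seq.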

Additional observations from a re-analysis of the deposited data

How the results depend on the processing

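Under N1-AcSpd the RNA comparison called 106 genes, and 262 with no minimum count, 377 with DESeq2, 44 with the mouse as a block, 29 with the treated libraries alone, 649 with the trended dispersion, 70 with counts summed over transcripts and 2 to 43 with 1 library left out. With the mouse as a block Tslp RNA (-0.71) was no longer called, and with the treated libraries alone neither Tuba8 (-0.96) nor Tslp (-0.70) was. With 1 library left out, where the lone library is assumed to vary like the other groups, the log2 difference ran from -1.51 to -1.24 for Ablim1, -1.05 to -0.90 for Tuba8 and -0.79 to -0.63 for Tslp. The footprint comparison called 3 genes, and 5 with RLE scaling, 1 with a mean of at least 10 counts, 1 with DESeq2, 11 with the treated libraries alone, 0 with summed transcripts and 0 to 2 with 1 library left out. Ablim1 footprints ran from -1.87 to 0.033, the latter without the N1-AcSpd progenitor library of mouse 2, those of Tuba8 from -2.65 to -1.35, and the footprint-to-RNA difference from -0.74 to 1.47 for Ablim1 and from -1.80 to -0.32 for Tuba8 and -0.14 to 0.38 for Tslp (-0.03 without N1-AcSpd progenitors of mouse 1). The untreated RNA comparison called 21 genes, and 268 with DESeq2, 3 with the mouse as a block and 1 to 7 with 1 library left out. Of the 5 genes called lower in untreated HFSCs, on which the choice of Ablim1, Tuba8 and Tslp rests, 0 were called with the block. The block changed no other call of the 3 genes under N1-AcSpd, in RNA, footprints or their ratio. With the mouse numbers of N1-AcSpd HFSCs crossed, an alternative chosen after seeing the data, the blocked fit called 903 genes under N1-AcSpd and 752 untreated. The cause of these changes was not tested. At a mean of at least 10 counts Ablim1 and Tuba8 gave no footprint value, and the depth of the Ribo-seq libraries limits every footprint result.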
